A study of Mus musculus with 23 samples.

Results

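RNA sequencing of the hippocampus was compared between sedentary father mice and offspring of sedentary fathers, 1 generation later. The members were all libraries that the labels place in either group, 4 from fathers and 8 from offspring, which is 12 of the 23 libraries of the series. The fathers were male wild-type C57BL/6 mice that had been kept without a treadmill, tested in hippocampus-dependent tasks, bred, and killed at an age of 7 months. The offspring were male wild-type C57BL/6 mice from litters of such fathers. They went through the same tasks and were killed at 5.5 months, and the labels name no treadmill training for them. The other 11 libraries come from 4 fathers that ran on a treadmill for 40 min a day over 6 weeks and from 7 offspring of exercised fathers, and they serve here only as a second lineage. The labels do not say which father sired which offspring, which offspring share a litter, nor that every library is a separate animal, so p-values measure the spread between these libraries, which may be technical. Generation, months of life, breeding and handling differ together between the groups and cannot be told apart, so a difference between the groups cannot be assigned to any of them.

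The hippocampus stores and retrieves memories of places and events. Its dentate gyrus keeps a niche of dividing progenitors in which neurons are added throughout adult life, and this production is known to decline with age in mice. Neurons there switch on immediate early genes such as Fos and Arc within minutes of activity, and the transcripts are short-lived. Cells that fold many secreted and membrane proteins rely on chaperones of the endoplasmic reticulum, whose genes rise together when unfolded protein accumulates. Hippocampal dissections can carry pieces of neighbouring tissue, such as the choroid plexus of the lateral ventricle and the thalamus.

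Levels are given as normalized counts, which are reads per gene divided by 1 size factor per library and can be compared between libraries but not between genes of different length. Each father's library held between 40124885 and 55172616 recovered reads, and each offspring library between 33667580 and 50746570. Markers of the hippocampus were high in all 12 libraries, with Prox1 of dentate granule cells between 5092 and 8081 and Slc17a7, the vesicular glutamate transporter of its pyramidal and granule cells, between 53536 and 64124. Xist, which is expressed from the inactive X chromosome of females, stayed between 0 and 5.26, and the Y-linked Ddx3y between 2489 and 2909, in libraries that are all labelled male.

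The libraries differed in the levels of genes that mark neighbouring tissue. The 15 choroid plexus genes summed to 2994 and 9273 normalized counts in fathers 1 and 2 and to 192690.0 and 136605 in fathers 3 and 4, against 3761 to 193617 in the offspring. Offspring 1 and 4 were low and the other 6 were at 37521 or more, so the groups overlapped. The 15 thalamus and habenula genes summed to 8683, 12170.4, 16484 and 24125 in the 4 fathers and to between 8418 and 11661 in the offspring, so fathers 2, 3 and 4 lay above every offspring library while father 1 lay within their range. No member of either list was at 0 in any of the 12 libraries. In a principal component analysis the first component took 30.2% of the variance and the second 11.5%, and on the second all 4 fathers scored between 15.6 and 21.5 while no offspring library exceeded 2.30.

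Of 17895 genes tested with limma, 3 passed a Benjamini-Hochberg adjusted p of 0.05, which is 0.0168% of the genes, and all 3 rose in the fathers relative to the offspring. They were mt-Nd3, Prune2 and Gab2. An unadjusted p under 0.05 was reached by 2120 genes (11.8%), 953 higher (5.33%) and 1167 lower (6.52%) in the fathers, and the median log2 fold change over all genes tested was 0.0013. DESeq2 on the recovered reads called 299 genes (1.67%), 118 higher (0.659%) and 181 lower (1.01%), and limma with all 23 libraries in the fit called 55 (0.299%), 16 higher (0.0871%) and 39 lower (0.212%), with all 3 genes in both sets. These percentages are the background for the counts given for each gene list. The values of fathers and offspring did not overlap at all for 326 genes (1.82%), of which 144 were higher (0.805%) and 182 lower (1.02%) in the fathers. Among genes at an unadjusted p under 0.05, the median GC content was 52.8% for those lower and 47.2% for those higher in the fathers, against 49.3% for all genes tested, and 3 genes passed after a GC trend was removed. The typical difference was small, with a median absolute log2 fold change of 0.075 against a median standard error of 0.081.

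mt-Nd3 (ENSMUSG00000064360.1) encodes a core subunit of respiratory complex I and lies at bases 9459 to 9806 of the plus strand of the mitochondrial genome (GRCm38). Its normalized counts were 11118, 10209.5, 9274 and 9233 in the 4 fathers and ran from 5791 to 7911 with a median of 6831 in the 8 offspring. Every father lay above every offspring library, with fathers 1 and 2 the highest. This was a log2 fold change of 0.56 (SE 0.072, limma adjusted p = 0.0271). Reads of mitochondrial genes can be shared with nuclear copies of mitochondrial DNA, so the assignment of its reads is uncertain.

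Prune2 (ENSMUSG00000039126.9), which encodes a protein with a BCH domain, spans chr19:16956118-17223932 on the plus strand. The fathers had 3331, 3553, 3468 and 3517 normalized counts and the offspring ran from 2799 to 3070.2 with a median of 2899.6. The 4 fathers were close to each other and above all 8 offspring libraries, by a log2 fold change of 0.25 (SE 0.034, limma adjusted p = 0.0271). Gab2 (ENSMUSG00000004508.6), an adaptor that links receptors to PI3-kinase and SHP2 signalling, spans chr7:97081586-97308946 on the plus strand. Its values were 1206, 1214, 1227 and 1233 in the fathers and ran from 949.5 to 1059.8 with a median of 1009 in the offspring, again with no overlap. The difference was 0.28 on the log2 scale (SE 0.039, limma adjusted p = 0.0324).

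Each of the 3 calls was lost when any 1 father was left out and when offspring replicate 3, 5 or 7 was left out, and their log2 fold changes then stayed positive. With the mean level of the thalamus and habenula genes as a covariate the log2 fold changes were 0.66, 0.21 and 0.26 for mt-Nd3, Prune2 and Gab2, and no gene passed.

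**Figure D1:**
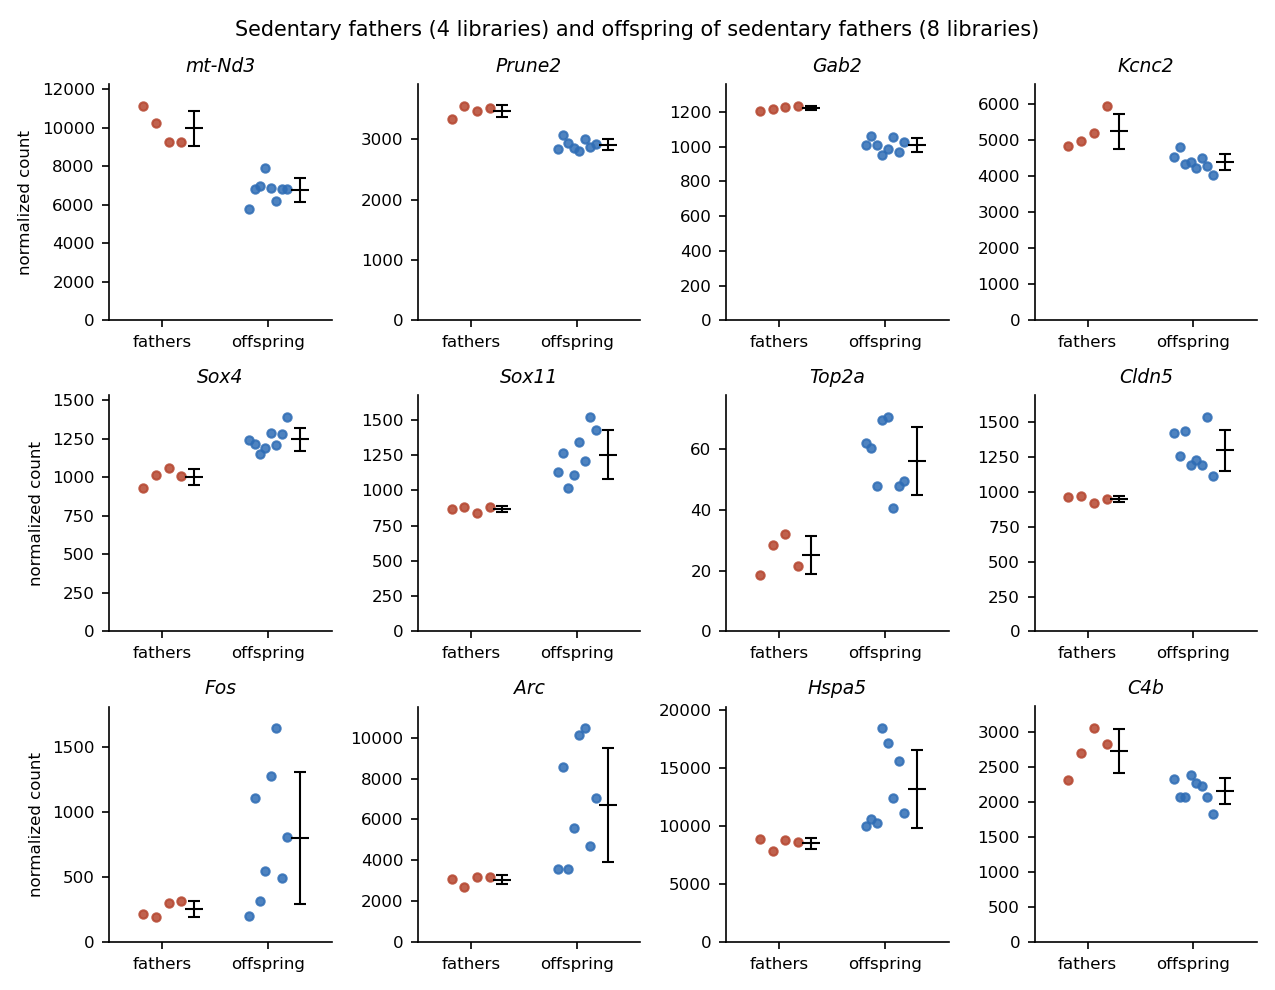
Normalized counts (y axis, linear from 0) of 12 genes in the 4 sedentary fathers (red) and the 8 offspring of sedentary fathers (blue), 1 point per library, with the mean and SD beside them. The groups do not overlap except for Fos, where offspring 1 (204) and 3 (315) lie among the fathers, and C4b, where father 1 (2308) lies among the offspring.

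The next genes by p did not pass at an adjusted p of 0.05 by limma. Those named were taken, after their values had been seen, as the smallest p-values or the largest fold changes among protein-coding genes whose groups do not overlap. Among the higher ones, Olfm3, an olfactomedin family protein of synapses, had 1353, 1411, 1319.6 and 1526 in the fathers and ran from 1085 to 1207 with a median of 1141 in the offspring (log2 fold change 0.29, limma adjusted p = 0.0709). Pcdhb9, a clustered protocadherin on the neuronal surface, had 777, 793, 782 and 711 against 544 to 673 (log2 fold change 0.35, limma adjusted p = 0.0709). It belongs to a cluster of similar genes, so its reads may be shared with its neighbours. Ddx25, an RNA helicase, had 1946, 2031, 2019 and 2036 against 1727 to 1838, a smaller difference with the same separation of the groups. The other higher genes of this kind were Rhou, Scn7a, Kcnc2, mt-Nd4l, Cyp4x1, Iqcb1, Spag6, Mcf2, Pi15 and Wnt9a, with log2 fold changes from 0.21 for Iqcb1 to 0.63 for Spag6, a protein of motile cilia.

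Kcnc2, which encodes a fast delayed-rectifier potassium channel of the Kv3 family, had 4819, 4977, 5199.6 and 5940.3 in the fathers and ran from 4027 to 4801 with a median of 4355 in the offspring. Its log2 fold change of 0.25 became 0.16 with the thalamic covariate, and the order of the fathers put father 4, which had the highest thalamic sum, at the top. Mcf2, a guanine nucleotide exchange factor, showed the same order, at 221, 225, 258 and 382 against 151.1 to 208, and its log2 fold change went from 0.57 to 0.32 with that covariate. For Scn7a, a sodium channel family member that senses sodium, the log2 fold change was 0.60 with the covariate. The fathers' values were 270.3, 230.3, 244 and 229. The thalamic level itself differed between the groups, and whether thalamic tissue bears on any of these genes was not tested.

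Among the lower genes of this kind, several act in progenitors and young cells. Sox4 (ENSMUSG00000076431.4, chr13:28948919-28953713, minus strand) and Sox11 (ENSMUSG00000063632.6, chr12:27334264-27342574, minus strand) are SoxC transcription factors that drive the differentiation of newborn neurons. Sox4 had 932, 1014, 1056 and 1005 normalized counts in the fathers and ran from 1151 to 1390.0 with a median of 1228 in the offspring, a difference of -0.31 on the log2 scale (SE 0.052, limma adjusted p = 0.0709). Sox11 had 867, 886, 839.8 and 881 against 1016 to 1522, a log2 fold change of -0.52 (SE 0.091, limma adjusted p = 0.0749). Sox2, which maintains neural stem cells and is also made by astrocytes, was lower by the same measure (-0.24, limma adjusted p = 0.0815), at 1598, 1756, 1704 and 1684 against 1795 to 2094. Every father lay below every offspring library in all 3 Sox genes, which the way they were picked requires.

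Other genes picked by the same rule, which requires groups that do not overlap, were lower as well. Gpr17, a receptor of committed oligodendrocyte precursors, had 1611, 1702, 1436 and 1555 in the fathers and ran from 1782 to 2379 with a median of 2038 in the offspring (log2 fold change -0.41, limma adjusted p = 0.0826). Rasl10a, a Ras-like GTPase, had 824, 928, 725 and 731 against 1072 to 1627 (log2 fold change -0.60). Hexim1, an inhibitor of the elongation factor P-TEFb, had 2602, 2570.5, 2494 and 2799.8 against 2995 to 3572 (log2 fold change -0.30). L3mbtl3, 2700081O15Rik, Tmem198, Palm and Tnfrsf25 also did not overlap, with log2 fold changes of -0.24, -0.25, -0.21, -0.19 and -1.06. Tnfrsf25 is a death receptor of the TNF receptor family, and its 12 values lay between 63.3 and 271.

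The adult neurogenesis list was lower in the fathers. Of its 21 members tested, 11 were lower and 0 higher at an unadjusted p under 0.05, against 6.52% and 5.33% of all genes. The groups did not overlap for 7 lower members, against 1.02% of all genes, and the median log2 fold change was -0.23. None passed the adjusted threshold by limma, while DESeq2 called 9 lower at an adjusted p under 0.05, against 1.01% of all genes. The list's mean log2(normalized count + 1) was 8.66 to 8.91 in fathers and 9.07 to 9.24 in offspring, without overlap. In bulk tissue, fewer cells of a type and less RNA per cell cannot be told apart.

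Genes of dividing cells were among the lower ones. Top2a, a topoisomerase made by cycling cells, had 18.6, 28.5, 32.2 and 21.7 normalized counts in the fathers and ran from 40.8 to 70.7 with a median of 55.0 in the offspring. All fathers lay below all offspring, with a log2 fold change of -1.13 (SE 0.18, limma adjusted p = 0.0709, DESeq2 adjusted p = 0.000209). Mki67, the proliferation marker Ki-67, had 31.4, 57.8, 47.8 and 45.4 against 56.7 to 92.2, where only father 2 lay above the lowest offspring library (log2 fold change -0.75, DESeq2 adjusted p = 0.0143). Both genes are measured by few reads per library, so counting error is a larger part of their spread than for the other members named.

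Other members of the list differed in whether the groups overlapped. Eomes (Tbr2), the transcription factor of intermediate progenitors, had 13.6, 77.3, 43.3 and 19.6 in the fathers and ran from 51.3 to 176 with a median of 107 in the offspring (log2 fold change -1.63, SE 0.40). The groups overlapped, since father 2 lay above offspring 2 and 7. Igfbpl1, expressed by newborn neurons, had 55.1, 39.9, 107 and 42.3 against 51.4 to 232 (log2 fold change -1.24). Ccnd2, the cyclin of adult hippocampal progenitors, had 3902, 3809, 3562 and 3392 against 3957 to 5183 (log2 fold change -0.28), and Nes, the intermediate filament nestin, had 496, 488, 482 and 458 against 510.1 to 624 (log2 fold change -0.23). Neither overlapped between the groups.

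Dcx, doublecortin of migrating young neurons, was not distinguishable between the groups. Its values were 873, 958, 764 and 685 in the fathers and ran from 793 to 991 with a median of 915 in the offspring, with a log2 fold change of -0.17 (SE 0.085, limma adjusted p = 0.465). Without fathers 3 and 4 its log2 fold change was 0.0023. Draxin, a guidance protein, had a log2 fold change of -0.58, and Tbr1, a factor of excitatory neurons that the cortex also makes, -0.20. With the thalamic covariate 9 of the 21 members were lower at an unadjusted p under 0.05 and the median was -0.17. Over all genes tested, 802 of 17895 were under that p in this fit, against 2120 without the covariate. The covariate did not reduce Top2a (-1.26) or Mki67 (-0.95).

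The immediate early genes were lower in the fathers as a group. Of 27 members tested, 18 were lower and 0 higher at an unadjusted p under 0.05, against 6.52% and 5.33% of all genes. The median log2 fold change was -0.42, and 26 of 27 had a lower mean in the fathers. The groups did not overlap for 2 lower members, against 1.02% of all genes. By limma none passed the adjusted threshold, and by DESeq2 6 were lower, against 1.01% of all genes. The mean level of the list was narrow in the fathers, 9.85 to 9.94, and wide in the offspring, 9.90 to 10.84. Offspring 1 and 3 sat at the fathers' level, at 9.90 and 9.94, and offspring 5 and 6 were the highest.

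Fos (ENSMUSG00000021250.13, chr12:85473890-85477273, plus strand), the subunit of the AP-1 factor, had 218, 198, 305 and 317 normalized counts in the fathers. The offspring ran from 204 to 1650.1 with a median of 680.3, and offspring 1, at 204, and 3, at 315, lay among the fathers while offspring 6, at 1650.1, was the highest. That is -1.36 on the log2 scale (SE 0.46, limma adjusted p = 0.261). Arc, which controls the trafficking of glutamate receptors at synapses, had 3112, 2720.3, 3191 and 3196 against 3585 to 10468, and all 4 fathers lay below all 8 offspring (log2 fold change -1.02, SE 0.27, limma adjusted p = 0.195, DESeq2 adjusted p = 0.026). Egr1, an inducible zinc finger factor, had 5003, 4697, 4339 and 4616 against 4703 to 11327; only father 1 lay above the lowest offspring library (log2 fold change -0.66). Egr2 was the member with the largest log2 fold change, -1.67 (SE 0.58).

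Among the other members, Ier5 and Dusp6 had the smallest p-values. Ier5 had 1944, 1984, 2016 and 1831 in the fathers against 2115 to 2546 in the offspring with no overlap (log2 fold change -0.24, limma adjusted p = 0.14, DESeq2 adjusted p = 0.00458), and Dusp6, a phosphatase that limits ERK signalling, had a log2 fold change of -0.42 (DESeq2 adjusted p = 0.00824). Npas4, a neuron-specific activity factor, had 269, 193, 242 and 194 against 171 to 967, and Junb, another AP-1 subunit, 1651, 1729, 1742 and 1801 against 1557 to 4042, both with offspring 1 below the fathers' lowest value. Homer1, whose short form is activity-induced, and Egr3 and Fosb had log2 fold changes of -0.31, -0.35 and -0.70. With the thalamic covariate 2 of 27 members were lower at an unadjusted p under 0.05 and the median was -0.30, against -0.42 without it. The number of all genes under that p also fell, to 802 of 17895 from 2120. Father 1, whose thalamic level of 7.77 was below every offspring library, had an immediate early level of 9.94, near offspring 1 and 3. Fathers 2, 3 and 4 lay above every offspring library in thalamic level. Whether thalamic tissue bears on the immediate early genes was not tested.

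Bdnf, the brain-derived neurotrophic factor, is also known to be induced by activity. It had 2172, 1859, 1881 and 1637 in the fathers and ran from 1635 to 2099 with a median of 1897 in the offspring, with a log2 fold change of -0.0059 (SE 0.079, limma adjusted p = 0.991) whose sign turned under several alternatives. Igf1, insulin-like growth factor 1, had 483, 440.4, 483 and 412 against 342 to 495 (log2 fold change 0.11, limma adjusted p = 0.738). In the list of neurotrophins and growth factors, with a median of -0.093, 4 of 17 members were lower and 0 higher at an unadjusted p under 0.05. The shares over all genes were 6.52% and 5.33%. The smallest p-values of the list were those of Flt1, Kdr and Vegfa, and Flt1 and Kdr are also in the endothelial list. Neither Bdnf nor Igf1 was under that p. The palindromic cAMP response element TGACGTCA was found in the 250 bases before the start of 2 of 21 matched immediate early genes (9.52%), Btg2 and Dusp1, against 478 of 27025 genes (1.77%) in the RefSeq table. A match is a description and not a site of binding.

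**Figure D2:**
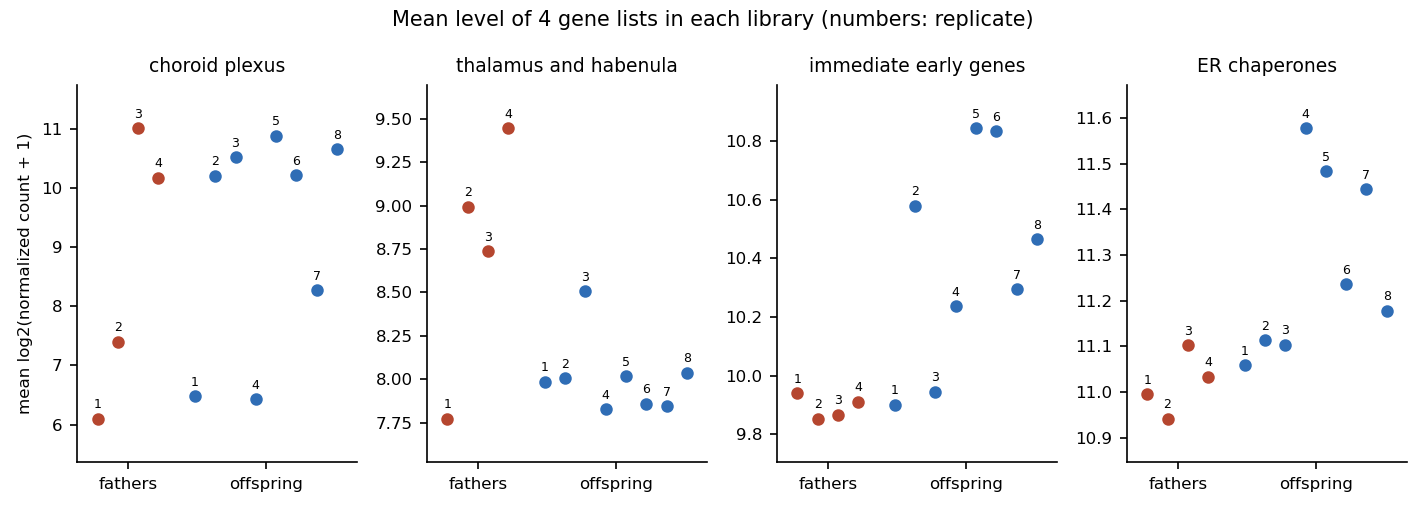
Mean log2(normalized count + 1) of the choroid plexus, thalamus and habenula, immediate early and endoplasmic reticulum chaperone lists in each library (fathers red, offspring blue, each labelled by its replicate number, axes not starting at 0). The immediate early level is 9.85 to 9.94 in the fathers and 9.90 to 10.84 in the offspring, and father 1 is the lowest library in the thalamus and habenula list.

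Endoplasmic reticulum chaperones formed another group that was lower in the fathers. Of 19 members tested, 14 were lower and 0 higher at an unadjusted p under 0.05, against 6.52% and 5.33% of all genes. The groups did not overlap for 5 lower members, against 1.02% of all genes, and the median log2 fold change was -0.23. DESeq2 called 6 lower, against 1.01% of all genes, and limma called none at the adjusted threshold. Genes of this kind are known to carry an element in their promoters, the endoplasmic reticulum stress element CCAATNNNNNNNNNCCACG, which is read by NF-Y with ATF6. In the 250 bases before the start it was found, on either strand, in 7 of 17 matched members (41.2%), against 35 of 27025 genes (0.13%), and in 0 of 18 matched heat shock and chaperone genes. The element was known from such genes beforehand, so its share in the list is no result of these data. The matched stretches are printed with 12 bases on each side, element in capitals, in the direction of the element (RefSeq, GRCm38.p6, with the strand of the genome that is printed).
Hspa5, chr2:34772013-34772055, plus strand: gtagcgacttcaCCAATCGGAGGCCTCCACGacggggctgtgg
Calr, chr8:84847063-84847105, plus strand: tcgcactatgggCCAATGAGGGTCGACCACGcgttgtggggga
Pdia6, chr12:17266479-17266521, plus strand: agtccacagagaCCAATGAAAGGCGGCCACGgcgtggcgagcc
Creld2, chr15:88819508-88819550, minus strand: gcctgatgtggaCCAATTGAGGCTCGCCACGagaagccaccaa
Dnajc3, chr14:118937815-118937857, plus strand: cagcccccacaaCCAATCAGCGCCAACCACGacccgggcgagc
Canx, chr11:50325788-50325830, minus strand: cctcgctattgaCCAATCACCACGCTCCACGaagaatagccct
Hsp90b1, chr10:86705521-86705563, plus strand: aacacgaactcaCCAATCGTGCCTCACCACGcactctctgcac
Hsp90b1, chr10:86705626-86705668, minus strand: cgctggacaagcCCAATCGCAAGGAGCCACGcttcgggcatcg
Of these 7 genes, Hspa5, Calr, Pdia6, Creld2, Dnajc3 and Hsp90b1 were lower in the fathers at an unadjusted p under 0.05 and Canx, calnexin, was not (log2 fold change 0.020). Members without a match, such as Pdia4 and Dnajb11, were lower at that p as well. A match is a description, and no factor was measured.

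Hspa5 (ENSMUSG00000026864.13, chr2:34771970-34777547, plus strand) encodes BiP, the Hsp70 of the endoplasmic reticulum. Its normalized counts were 8918, 7857, 8825 and 8617 in the fathers and ran from 10023 to 18493 with a median of 11837 in the offspring, so all fathers lay below all offspring. Offspring 4, 5 and 7 were the highest, at 18493, 17180.2 and 15630.3. The fathers differed from the offspring by -0.59 on the log2 scale (SE 0.16, limma adjusted p = 0.195, DESeq2 adjusted p = 0.0498). Sdf2l1, a partner of the BiP cycle, had 231, 239, 262 and 237 in the fathers and 254 to 578 in the offspring, the same 3 offspring libraries being the highest (log2 fold change -0.70). Pdia6, a disulfide isomerase, had 3519, 3246, 3391 and 3379 against 3752 to 5766 with no overlap (log2 fold change -0.38, DESeq2 adjusted p = 0.0331).

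Calr, the lectin chaperone calreticulin, had a log2 fold change of -0.27, Pdia4 of -0.48, Xbp1, the transcription factor of the unfolded protein response, of -0.39, and Manf, a secreted protein of the stressed reticulum, of -0.44. Xbp1 was nearly equal in the 4 fathers, at 2281, 2285, 2299 and 2332, and ran from 2407 to 3779.6 with a median of 2938 in the offspring with no overlap. Hyou1, Dnajb11, Creld2, Dnajc3 and Hsp90b1 lay between -0.48 and -0.17. The list's mean level was 10.94 to 11.10 in the fathers and 11.06 to 11.58 in the offspring, where offspring 1, 2 and 3 were close to the fathers and 4, 5 and 7 furthest from them. With the thalamic covariate 0 of 19 members had an unadjusted p under 0.05 and the median was -0.17. In that fit 802 of all 17895 genes were under this p, against 2120 without the covariate, so fewer genes of any kind reached it. Father 1, low in the thalamus list, had a chaperone level of 10.99, below every offspring library. Whether thalamic tissue bears on the chaperone genes was not tested. Without fathers 3 and 4, 12 of 19 were lower, and without fathers 1 and 2, 6 of 19. Over all 17895 genes, 1380 and 2298 had an unadjusted p under 0.05 in these fits.

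Cytosolic heat shock genes and chaperones were lower to a smaller extent, with a median of -0.094. At an unadjusted p under 0.05, 8 of 23 members were lower and 0 higher, against 6.52% and 5.33% of all genes. With the thalamic covariate 2 of 23 were lower and the median was -0.049. That fit had 802 of 17895 genes under this p. Dnajb5, an Hsp40 co-chaperone, had 4128, 4053, 3578 and 3859 in the fathers and ran from 4231 to 5461 with a median of 4915 in the offspring with no overlap (log2 fold change -0.32, limma adjusted p = 0.139, DESeq2 adjusted p = 0.00347). Hsf1, the regulator of the heat shock response, and Cryab, a small heat shock protein of oligodendrocytes and astrocytes, had log2 fold changes of -0.16 and -0.25. In the cold-inducible list of 6 genes 3 were higher and 1 lower, and the lower one was Hspa5. Cirbp, the cold-inducible RNA-binding protein, had 1939, 2341, 2443 and 2611 against 1462 to 2109.8 (log2 fold change 0.40, and 0.18 with the thalamic covariate), and Rbm3 had a log2 fold change of 0.22.

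Clock genes were mixed, with a median of 0.0060. At an unadjusted p under 0.05, 5 of 21 members were higher and 2 lower, against 5.33% and 6.52% of all genes. The largest log2 fold change of the list, 0.50, was that of Rora, which is also in the thalamus and habenula list. With the thalamic covariate 0 members were higher and 2 lower at that p, and the median was 0.051. Among all genes 802 of 17895 were under it with the covariate. Dbp, an output factor of the clock with a strong daily rhythm, had 2198, 2898, 3228 and 3635 in the fathers and ran from 2112 to 2918 with a median of 2362 in the offspring (log2 fold change 0.31, limma adjusted p = 0.291). Fathers 1 and 2 lay within the offspring and father 4 was the highest, and the log2 fold change was 0.045 with the thalamic covariate. Nr1d1 and Ciart, repressors of the clock, had log2 fold changes of 0.22 and 0.46. Tef, a factor related to Dbp, went the other way, at 12932, 12884, 12786 and 12846 against 13577 to 16112 with no overlap (log2 fold change -0.20, DESeq2 adjusted p = 0.00379). The hour of death is not given in the sources used here.

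Targets of glucocorticoids were mixed too, with 1 of 16 higher and 1 lower at an unadjusted p under 0.05 and a median of 0.025. Sgk1, a kinase induced by corticosterone, was the higher one, with 3135, 2108, 2939 and 3134 against 1966 to 2865 (log2 fold change 0.28). Cdkn1a, the cell cycle inhibitor p21, was the lower one, with 215, 211, 196 and 199 against 240.2 to 411 and no overlap (log2 fold change -0.49, DESeq2 adjusted p = 0.0184). Nr3c1, the glucocorticoid receptor, had 5217, 5382, 5287 and 5217 against 4604 to 6531 (log2 fold change -0.0067, limma adjusted p = 0.989), and 0 of 3 genes of the corticosteroid receptor list were past an unadjusted p of 0.05 (median -0.016).

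Among the 13 mitochondrially encoded mRNAs, 12 had a higher mean in the fathers, and the median was 0.11. At an unadjusted p under 0.05, 3 were higher and 0 lower, against 5.33% and 6.52% of all genes. Beside mt-Nd3 these were mt-Nd4l, which overlaps mt-Nd4 so that reads cannot be assigned with certainty, and mt-Atp6, a subunit of ATP synthase. mt-Nd4l had 33542, 37609, 34768 and 33194 in the fathers and ran from 25692 to 31444 with a median of 27513 in the offspring with no overlap (log2 fold change 0.33, limma adjusted p = 0.0709), and mt-Atp6 had 14054, 16186, 17820.5 and 14089 against 9176 to 15903 (log2 fold change 0.30). The list's mean level was 16.04 to 16.07 in the fathers, inside the offspring's 15.44 to 16.15.

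Nuclear genes of energy metabolism differed little. Of 75 genes of the nuclear respiratory chain 3 were higher and 0 lower at an unadjusted p under 0.05 (median 0.032), of 17 citric acid cycle genes 2 were higher and 0 lower (median 0.048), of 32 proteasome genes 2 were higher and 0 lower (median 0.039), and of 78 ribosomal protein genes 0 were past it in either direction (median 0.018). The background was 5.33% higher over all genes, and the counts of the citric acid cycle and proteasome lists rest on 2 genes each.

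Of 20 microglial and complement genes tested, 3 were higher and 0 lower at an unadjusted p under 0.05, against 5.33% and 6.52% of all genes. By mean 16 were higher in the fathers (median 0.052, and 0.031 with the thalamic covariate). C4b, a complement component made by astrocytes and known to increase in the ageing brain, had 2308, 2701, 3056 and 2827 in the fathers and ran from 1826 to 2386 with a median of 2152 in the offspring. Only father 1 overlapped the offspring (log2 fold change 0.33, SE 0.077, limma adjusted p = 0.157, DESeq2 adjusted p = 0.00738). C3, the central complement component, and Ctss, a lysosomal protease of microglia, had log2 fold changes of 0.50 and 0.16. With the thalamic covariate the log2 fold change was 0.23 for C4b and 0.066 for Ctss. Cfp, properdin of the complement system, and Dok3, an adaptor of myeloid cells, were lower without overlap, with log2 fold changes of -0.63 and -0.69. In the MHC and interferon list 0 of 20 were past the unadjusted threshold (median 0.067).

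Astrocyte markers showed no common direction, with 0 of 16 higher and 2 lower at an unadjusted p under 0.05 (median 0.0040). Gfap, the intermediate filament of astrocytes that rises in reactive cells, had 11942, 12843, 16009 and 14863 against 11308 to 14113 (log2 fold change 0.16, limma adjusted p = 0.436); fathers 3 and 4 were above all offspring and fathers 1 and 2 within them. Sox9, an astrocyte and stem cell factor, was lower without overlap, at 1772, 2067, 2133 and 1991 against 2151 to 2589 (log2 fold change -0.24, DESeq2 adjusted p = 0.0207). Myelin and oligodendrocyte genes had 2 of 21 higher and 0 lower (median 0.073), the 2 being Opalin, a myelin glycoprotein (0.27), and Aspa, an enzyme of N-acetylaspartate breakdown (0.31). Their log2 fold changes were 0.13 and 0.15 with the thalamic covariate. Of 12 genes of oligodendrocyte precursors 1 was higher and 1, Gpr17, lower (median 0.044).

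Among endothelial genes, 3 of 16 were lower and 0 higher at an unadjusted p under 0.05 (median -0.030), against 6.52% and 5.33% of all genes. Cldn5, the claudin of the blood-brain barrier, had 959.9, 972, 922 and 949 normalized counts in the fathers and ran from 1110.5 to 1536 with a median of 1242 in the offspring. The fathers were close to each other and below every offspring library (log2 fold change -0.44, SE 0.077, limma adjusted p = 0.0749, DESeq2 adjusted p = 0.000117). The receptors of VEGF, Flt1 and Kdr, had log2 fold changes of -0.20 and -0.38, with Kdr at 538, 658, 699.8 and 578 against 582 to 1003. By mean, 10 of the 16 endothelial members were lower and 6 higher. Mural cell genes had 0 of 12 past the threshold (median 0.058), meningeal fibroblasts and collagens 0 of 16 (median 0.14), and erythrocyte genes 0 of 6 (median 0.078). Hbb-bs, a globin of red blood cells, had 362, 431, 628 and 1449 against 143 to 3193 (log2 fold change 0.26, SE 0.61, limma adjusted p = 0.922).

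Genes of the thalamus and habenula were higher in all of 13 members by mean, with a median log2 fold change of 0.50. At an unadjusted p under 0.05, 6 were higher and 0 lower, against 5.33% and 6.52% of all genes. Tcf7l2, the factor that marks thalamic neurons, had 225, 588, 901 and 1848 in the fathers and ran from 256 to 553 with a median of 313 in the offspring (log2 fold change 1.09). Father 1 was the lowest of all 12 libraries and father 4 the highest, and without fathers 3 and 4 the log2 fold change was 0.18. Rora, a nuclear receptor of thalamus and cerebellum, had 2815, 3438, 4855 and 5788 against 2395 to 3344 (log2 fold change 0.50, and 0.12 without fathers 3 and 4). Slc17a6, which loads glutamate into vesicles of thalamic neurons, had 1187, 1866, 2272 and 2822 against 866 to 1621, and Ramp3, a receptor activity-modifying protein, 112, 162, 317 and 719 against 61.1 to 172. Chrnb3, a nicotinic receptor subunit of the habenula, had 25.4, 143, 80.0 and 59.9 against 16.5 to 35.8, with father 2 the highest (log2 fold change 1.51, DESeq2 adjusted p = 0.00133). Pou4f1, a factor of the habenula, and Irx2 were not tested, because fewer than 4 libraries reached 10 normalized counts. Pou4f1 had 2.54, 158, 22.2 and 6.19 normalized counts in the fathers and at most 9.22 in the offspring. Irx2 had 3.39, 87.9, 61.1 and 54.7 in the fathers and at most 9.61 in the offspring.

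Choroid plexus genes split the libraries and not the groups. All 15 had a lower mean in the fathers (median -0.51), and 0 of 15 were past an unadjusted p of 0.05. Ttr, transthyretin, which the choroid plexus secretes, had 770.1, 6009, 163326 and 121017 in the fathers and ran from 1136 to 172394 with a median of 130730.0 in the offspring, with a log2 fold change of -1.09 (SE 1.69, limma adjusted p = 0.874) that was 1.93 without fathers 1 and 2. Genes of the neocortex had 0 of 15 higher and 1 lower (median -0.010).

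Genes of hippocampal neuron types differed little between the groups. Of 12 genes of dentate granule cells 0 were past the unadjusted threshold (median -0.085). Of 10 genes of CA1 pyramidal cells 1 was lower (median -0.052). In the 14 genes of CA2 and CA3 pyramidal cells 1 was higher and 1 lower (median -0.0087); the higher one, Amigo2, a cell adhesion protein of CA2, had 1152, 1155, 1126 and 1128 against 689 to 1103 with no overlap (log2 fold change 0.32, limma adjusted p = 0.238). In the 22 genes of GABAergic interneurons 1 was higher and 1 lower (median -0.034). Pvalb, parvalbumin of fast-spiking cells, was the higher one (0.31, with father 4 at 1492 against 866 to 976 in the other fathers), and Dlx1, a factor of interneuron identity, the lower one (-0.32).

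Receptor genes differed in both directions or by small amounts in 1 direction. Of 25 glutamate receptor genes 3 were higher and 3 lower (median -0.019). Grin3a, an NMDA receptor subunit of young synapses, was higher at 2516, 2907, 2599 and 2379.8 against 2005 to 2514, and Grik1, a kainate receptor subunit, at 604, 615, 636 and 632 against 499 to 610.1 (log2 fold changes 0.24 and 0.20). All 14 GABA receptor genes had a higher mean in the fathers, with 1 past the unadjusted threshold and a median of 0.053. That one, Gabra4, a subunit of extrasynaptic receptors of granule cells, had 5334, 5193, 5298 and 5857 against 4349 to 5402 (log2 fold change 0.20, limma adjusted p = 0.195, DESeq2 adjusted p = 0.0299). Genes of synaptic vesicles and scaffolds had 4 of 23 lower and 0 higher (median -0.080). With the thalamic covariate none was lower and the median was -0.017, in a fit with 802 of 17895 genes at an unadjusted p under 0.05. Of 24 potassium channel genes 2 were higher, Kcnc2 among them, and 1 lower (median 0.026).

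Of 36 splicing factors 7 were lower and 1 higher at an unadjusted p under 0.05 (median -0.045), against 6.52% and 5.33% of all genes. With the thalamic covariate none was lower at that p and the median was 0.0088, and without fathers 3 and 4 the median was -0.0062. The covariate fit had 802 of 17895 genes under that p. Tra2a, a splicing regulator, had 2559, 2113, 1912 and 2321 against 2466 to 3042 (log2 fold change -0.31, DESeq2 adjusted p = 0.0161), Sfpq, a paraspeckle protein, had a log2 fold change of -0.28 and Hnrnpm, an hnRNP, of -0.17. Father 1 had the highest value of the 4 fathers for all 3 genes. Of 33 genes of DNA methylation and histone modification 3 were lower, against a background of 6.52%, and 1 higher (median -0.045), with the class IIa deacetylases Hdac4 and Hdac9 on opposite sides (-0.23 and 0.21). Hdac9 had 2114, 2255, 1975 and 2075 in the fathers against 1710.1 to 1982, with father 3 inside the offspring's range, and Hdac4 had 2359, 2361, 2452 and 2115 against 2410.2 to 3068. Of 24 imprinted genes 2 were higher and 1 lower (median 0.0067), of 11 nuclear noncoding RNAs 1 was lower (median -0.023), of 20 genes of cholesterol synthesis and uptake 2 were higher (median 0.060), and of the 4 Y-linked genes of the sex check 1 was higher (median -0.0059).

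**Figure D3:**
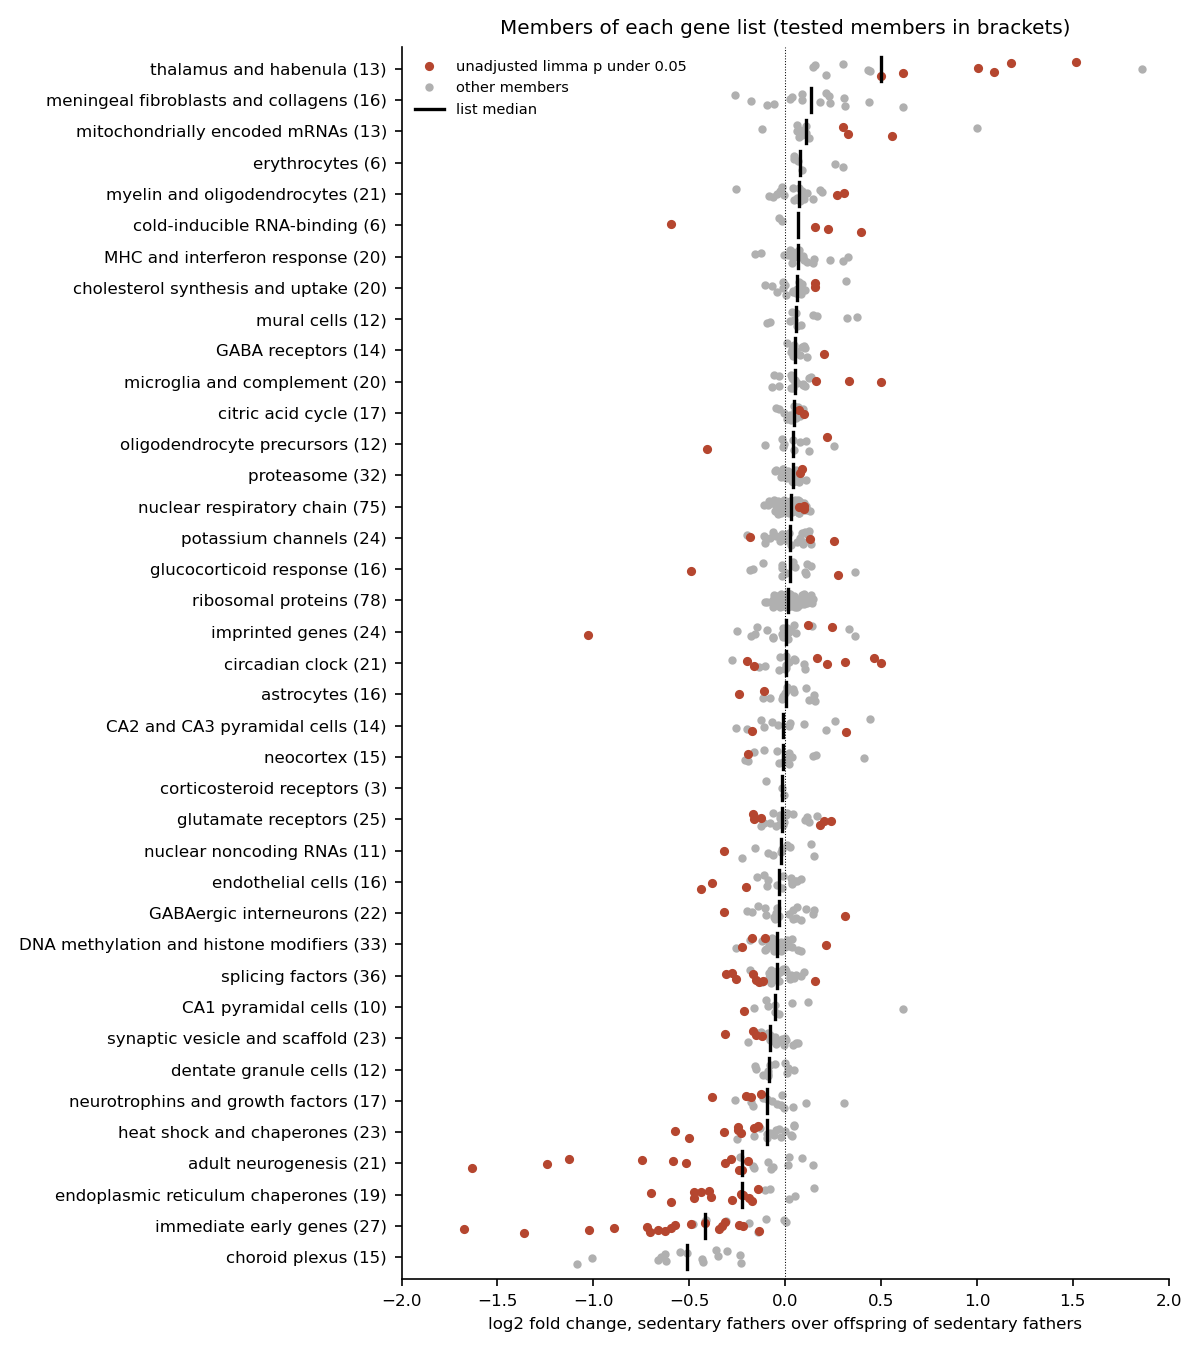
Log2 fold change of sedentary fathers over offspring of sedentary fathers (x axis) for every tested member of the gene lists except the sex check, with the number tested in brackets, members at an unadjusted limma p under 0.05 in red, the others grey, and the list median as a black bar. The medians run from -0.51 for the choroid plexus, where 0 members are red, through -0.42 for the immediate early genes to 0.50 for the thalamus and habenula.

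The same contrast was made in the exercised lineage, 4 exercised fathers against 7 offspring of exercised fathers, which shares no library with the sedentary lineage. The sample titles are codes that the labels do not explain, and 3 pairs of the offspring of exercised fathers, and no pair of the 8 offspring of sedentary fathers, have titles that differ in the last character alone; whether such libraries are related was not tested. There, 3 of 17815 genes passed at an adjusted p of 0.05 by limma (0.0168%), Hif3a, Plin4 and Adipor2, and 1715 had an unadjusted p under 0.05 (9.63%). In the sedentary lineage these 3 genes had log2 fold changes of 0.53, 0.36 and 0.17 against 1.30, 1.28 and 0.47. Of the 17641 genes tested in both, 2095 had an unadjusted p under 0.05 in the sedentary and 1688 in the exercised lineage. Both held 331, and 312 of these had the same direction, 199 lower and 113 higher in the fathers, which is 14.9% of the sedentary and 18.5% of the exercised list. Of the 2095 genes 76.8% had the same sign in the exercised lineage, against 61.0% of all genes.

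The difference between the lineages was tested as an interaction, and 0 of 18377 genes passed by limma at an adjusted p of 0.05, with 1042 at an unadjusted p under 0.05 (5.67%), 0 by edgeR and 6 by DESeq2. Of the immediate early genes 18 of 27 were lower in each lineage at an unadjusted p under 0.05, with medians of -0.42 and -0.40. In the exercised lineage 1 member was higher at that threshold, where 5.42% of all genes were lower and 4.21% higher. Fos had a log2 fold change of -1.35 (SE 0.46) there, at 215 to 416 normalized counts in the exercised fathers and 199 to 1498 in the offspring of exercised fathers. Its interaction was -0.015 on the log2 scale (SE 0.70).

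The neurogenesis list had 7 of 22 members lower and 2 higher in the exercised lineage, with a median of -0.074. Sox4 and Sox11 were lower in both lineages, with log2 fold changes of -0.31 and -0.52 in the sedentary and -0.24 and -0.39 in the exercised one. Averaged over both lineages the limma adjusted p was 0.000667 and 0.00101. That average includes the sedentary libraries by which both genes were picked, so it is not separate support. Top2a had log2 fold changes of -1.13 in the sedentary and -0.33 in the exercised lineage, with an interaction of -0.80 (SE 0.22, limma adjusted p = 0.775). Eomes had log2 fold changes of opposite sign, -1.63 and 0.80 (interaction limma adjusted p = 0.775), and Gpr17 had -0.41 and -0.012 (interaction limma adjusted p = 0.775).

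The endoplasmic reticulum chaperones had 3 of 19 lower and 2 higher in the exercised lineage, with a median of -0.094 against -0.23. Hspa5 was at 8820.2 to 9322 normalized counts in the exercised fathers and at 9049 to 12038 in the offspring of exercised fathers, a log2 fold change of -0.19, and its interaction of -0.40 (SE 0.19) did not pass (limma adjusted p = 0.874). Cldn5 and C4b had log2 fold changes of -0.57 and 0.47 there. Averaged over both lineages the limma adjusted p was 0.000667 and 0.00206, with the sedentary libraries used again. Averaged over both lineages, 235 of 18377 genes passed (1.28%), 85 higher (0.463%) and 150 lower (0.816%), among the lower 7 of the immediate early, 7 of the neurogenesis and 3 of the endoplasmic reticulum chaperone list. Of the 3 genes called in the sedentary lineage, mt-Nd3 had 0.39, Gab2 0.15 and Prune2 0.076 in the exercised lineage. Of the thalamus and habenula list, 9 of 12 members had a higher mean in the exercised fathers, 1 was higher and 1 lower at an unadjusted p under 0.05, and the median was 0.11. Its summed level was 8587 to 11921 in the exercised fathers and 7692 to 10034 in their group's offspring. At the same p in the exercised lineage, 8 of 21 clock genes were higher and 3 lower (median 0.065). Microglial and complement genes had 7 of 20 higher and 0 lower (median 0.14), and splicing factors 0 of 36 higher and 9 lower (median -0.062). Dbp and Ciart had log2 fold changes of 0.41 and 0.54 there.

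**Figure D4:**
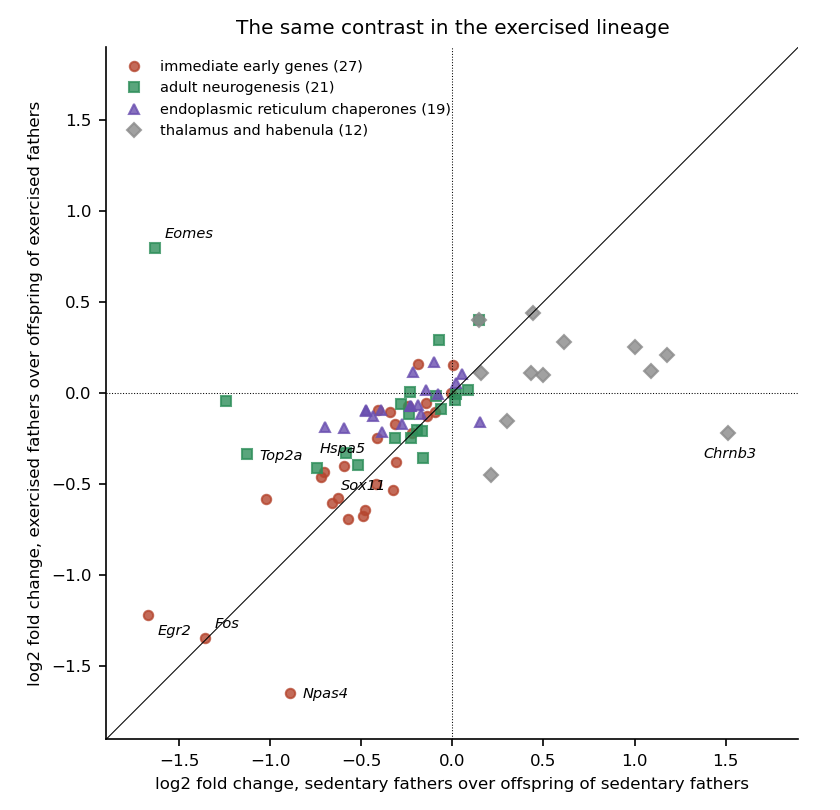
Log2 fold change of fathers over offspring in the sedentary lineage (x axis) against the exercised lineage (y axis) for members of 4 gene lists tested in both, with the line of equality and the number of members in brackets. Of 27 immediate early genes (circles) 25 lie under 0 in the exercised lineage, Fos at -1.36 and -1.35 and Arc at -1.02 and -0.58, endoplasmic reticulum chaperones (triangles) lie closer to 0 in the exercised lineage, and Eomes stands apart at -1.63 and 0.80.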

How the data were processed

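RNA of the hippocampus was sequenced by the authors in 23 libraries, of which 12 are compared here. Per the labels' protocols, oligo-dT selection from 500 ng of total RNA gave TruSeq Stranded mRNA libraries after 15 PCR cycles, read as pairs of 76 bases on a HiSeq2000. GRCm38, DESeq2 1.10, RSEM 1.2.28 and STAR 2.5.2a appear in the submitters' processing notes, with no role for each. No source used here gives the annotation, filters or use of strand. The deposited tables are named as lacking an outlier, without saying which library was dropped. The authors deposited the values as a signal, normalized counts, which as read from the values are gene counts divided by 1 size factor per library. Dividing by the value of 1 read recovered whole reads within 0.1 for 100% of low values, and a count test on them (edgeR) called 3 genes. Both tables share 1 scale, and 0 columns were of unmapped samples.

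Tables were joined on the gene identifier, and 51719 of 51912 identifiers matched GENCODE M21, ignoring the version. Genes that reached 10 normalized counts in 4 or more of the 12 libraries were tested on log2(normalized count + 1) with limma 3.58.1 (R 4.3.3, trended eBayes, two-sided, Benjamini-Hochberg adjustment over all genes tested), fathers minus offspring. Fold changes are on that scale and understate the change of low genes. The named genes were to be the 12 higher and 12 lower protein-coding genes by p and the 6 by fold change that passed without overlap, the 3 smallest p-values of each list and a fixed set (Bdnf, Igf1, Dcx, Fos, Arc, Ttr, Hbb-bs, Gfap, C4b, Nr3c1, Dbp and Xist). Since 3 genes passed, others were added after seeing their values. The members and the 40 gene lists were chosen with earlier results of these data known. The test was checked on simulated data.

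Alternatives were other pseudocounts, filters and scalings, edgeR 4.0.16 and DESeq2 1.42.0 on recovered reads, all 23 libraries in the fit, array weights, libraries left out, GC and length trends, and the level of the choroid plexus or thalamus list as a covariate. In the 34 pairs of libraries of a group the chi-square per degree of freedom over genes with at least 20 reads was 5.99 to 54.9, so no library was a copy of another. PCR reads are not independent molecules. Offspring replicates 7 and 8 carry barcode labels of another series (AD21) than the other 10 libraries, which holds no father, so no value within it can be had. Promoter windows and sequences are those of RefSeq (GRCm38.p6), searched on both strands.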

Additional observations from a re-analysis of the deposited data

Results flagged for a closer look

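Within a group, 1 library stood apart from the others by the gap to its nearest neighbour in 9 of 290 groups of values tested, and chance gives about 1 in 20. Offspring 3 had 553 normalized counts of Tcf7l2 against 256 to 337 in the other 7 offspring, and its mean thalamus and habenula level was 8.51 against 7.83 to 8.04. The same library had the lowest mean level of the clock list, 11.12 against 11.19 to 11.23. Offspring 6 had 3193 normalized counts of Hbb-bs against 143 to 589, and its erythrocyte level was 10.48 against 6.86 to 8.34. Offspring 4 had 50.6 normalized counts of Draxin against 29.0 to 39.1. Offspring 8 had 2918 normalized counts of Dbp against 2112 to 2465. Offspring 1 had a corticosteroid receptor level of 12.17 against 11.74 to 11.88. Father 1 had a microglia and complement level of 9.72 against 9.84 to 9.85 in the other 3 fathers.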

How the results depend on the processing

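The count of 3 genes stayed at 3 or 4 with pseudocounts of 0.5 and 5, a filter at 50, TMM factors, quantile normalization, edgeR and a GC trend removed. It was 8 with no filter, 18 with array weights, 55 with all 23 libraries in the fit, 299 with DESeq2 (118 higher, 181 lower), 130 with the choroid plexus covariate (31 higher, 99 lower), 19 without fathers 1 and 2 (with 0 of the 3 among them) and 235 averaged over both lineages, which was added after seeing the data. It was 0 with median centring, a length trend removed, the thalamus and habenula covariate, both covariates, without the AD21 libraries, and without fathers 3 and 4. Leaving out 1 library gave 0 to 5 genes, and 0 without any single father or without offspring 3, 5 or 7. At an unadjusted p under 0.05, 802 genes were left with the thalamus covariate and 3074 with that of the choroid plexus, against 2120. The cause of these shifts was not tested. The interaction gave 6 genes with DESeq2 and 4 with no filter, and 0 for each library left out. No paired analysis was possible because the labels give no replicate numbers that tie a father to offspring, and do not explain the codes of the titles.

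The sign turned for 8 genes. Bdnf turned to 0.0032 with quantile normalization, 0.034 with array weights, 0.0037 without the AD21 libraries, 0.092 without fathers 3 and 4, 0.20 with the thalamus covariate and 0.12 with both, and ran from -0.076 to 0.060 with 1 library left out. Hbb-bs turned to -0.11 in edgeR, -0.023 with array weights, -0.37 without fathers 3 and 4, -0.059 with the thalamus covariate and -0.0045 with both, and ran from -0.15 to 0.64 with 1 library left out. Nr3c1 turned to 0.00094 after quantile normalization and 0.00087 without the length trend (-0.036 to 0.036 with 1 library left out). Ttr was 1.93 without fathers 1 and 2 (-2.16 to 0.41 with 1 library left out), Tcf7l2, a member of the list behind it, -0.15 with the thalamus covariate, and Gfap -0.0012 and Dcx 0.0023 without fathers 3 and 4. Canx ran from -0.0022 to 0.042 with 1 library left out. The median log2 fold change of the immediate early list lay between -0.50 and -0.17 over the settings, of the neurogenesis list between -0.26 and -0.17, and of the endoplasmic reticulum chaperones between -0.27 and -0.17. With 4 fathers and a median standard error of 0.081, most differences of the median size of 0.075 are not detectable, and genes of a few reads are limited by depth.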
